A study of Mus musculus with 4 samples.

Results

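Genes of fatty acid oxidation and targets of the peroxisome proliferator-activated receptors (PPARs) were followed in stimulated CD4+ T cells of db/db mice, set against db/+ mice. The members were 37 genes chosen by name from the pathway. Of these, 35 had at least 1 feature, with 86 features among the 33709 annotated ones, and 31 had at least 1 of 65 features outside the misread stretches described below. Gene names rest on a placement of features inferred from the data, as the tables give none. The levels of Acsl1 and Ucp2 were not analysed here.

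The db/db mice were C57BL/6 animals that carry 2 mutant copies of the leptin receptor gene Lepr, and the db/+ mice, also C57BL/6, carry 1 functional copy and stood as wild type. The labels give the db/db phenotype as leptin-deficient, while the series title names the receptor. CD4+CD25- T lymphocytes were purified from spleen and stimulated for 12 h with anti-CD3 and anti-CD28 in both groups. Each group had 2 samples, each a pool of 3 mice and each read on its own one-colour array, from 2 independent experiments that the labels do not tie to the replicate numbers. Age and sex are not in the labels. With 2 pools per group, p-values measure only the spread between these pools. A difference in bulk RNA does not tell more cells of a type from more RNA per cell.

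Fatty acids enter a cell with the help of surface carriers such as CD36, are bound by fatty acid binding proteins and are joined to coenzyme A by acyl-CoA synthetases. Carnitine palmitoyltransferases carry them into mitochondria, where repeated rounds of dehydrogenation, hydration, a further dehydrogenation and thiolysis shorten the chain. Electrons leave through the electron transfer flavoprotein, and peroxisomes shorten the chains that mitochondria do not take. PPARs are nuclear receptors that bind fatty acids and switch on many of these genes, as partners of retinoid X receptors on a repeated hexamer of DNA. Newly activated T cells rely mainly on glucose and glutamine, whereas memory and regulatory T cells are known for fatty acid oxidation.

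The sequence that PPARs recognise was looked for in the promoters of the members. RefSeq windows of 300 bases on build GRCm38.p6, from 250 bases before to 50 bases after the transcript start, were used for 31 members, Acsl1 and Ucp2 among them, and none for Cpt1b, Decr1, Acaa2, Fabp4, Fabp5 and Angptl4. The full element, 2 copies of AGGTCA in the same direction with 1 base between them and searched on both strands, was in 0 of the 34 windows of these members and in 0.0396% of all 32851 windows. A single half-site AGGTCA, on either strand and also part of the repeat, was in the windows of 7 of 31 member genes (22.6%), against 18.1% of all 27025 genes. The 7 were Acadm, Acadvl, Cd36, Cpt1a, Echs1, Plin2 and Pparg. A match describes these letters only, and the absence of one says nothing of the factor. Shown are 2 members with a feature called higher in db/db below (Cd36 and Cpt1a) and 2 with none (Acadm and Acadvl), each on the strand of its gene, with the half-site in capitals.
Cd36: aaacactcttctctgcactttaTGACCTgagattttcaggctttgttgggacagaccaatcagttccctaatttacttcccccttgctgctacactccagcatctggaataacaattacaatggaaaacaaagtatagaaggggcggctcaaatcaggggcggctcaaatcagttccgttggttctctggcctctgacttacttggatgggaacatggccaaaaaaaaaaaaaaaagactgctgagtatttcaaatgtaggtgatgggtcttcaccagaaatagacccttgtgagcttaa
Cpt1a: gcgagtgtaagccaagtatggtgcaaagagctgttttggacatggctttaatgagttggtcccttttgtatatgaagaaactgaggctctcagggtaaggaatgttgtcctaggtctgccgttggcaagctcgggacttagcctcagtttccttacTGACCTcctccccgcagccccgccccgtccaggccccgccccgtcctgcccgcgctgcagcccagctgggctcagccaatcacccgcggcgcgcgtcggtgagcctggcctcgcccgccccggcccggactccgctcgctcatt
Acadm: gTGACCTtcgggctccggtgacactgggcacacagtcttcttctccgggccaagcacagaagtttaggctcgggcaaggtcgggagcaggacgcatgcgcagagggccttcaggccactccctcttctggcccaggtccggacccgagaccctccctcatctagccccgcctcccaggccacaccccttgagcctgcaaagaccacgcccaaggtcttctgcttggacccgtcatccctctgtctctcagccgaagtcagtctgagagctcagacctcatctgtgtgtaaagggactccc
Acadvl: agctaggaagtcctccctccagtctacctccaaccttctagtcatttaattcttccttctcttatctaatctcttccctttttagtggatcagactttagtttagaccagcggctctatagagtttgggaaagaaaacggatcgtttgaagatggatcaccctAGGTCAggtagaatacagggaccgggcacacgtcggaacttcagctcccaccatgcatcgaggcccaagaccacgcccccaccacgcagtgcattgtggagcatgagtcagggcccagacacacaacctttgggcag
The Cd36 window is chr5:17835847-17836146 on the minus strand, with its half-site 228 bases before the start. The Cpt1a window is chr19:3323051-3323350 on the plus strand, with the half-site 94 bases before the start. The Acadm window is chr3:153944594-153944893 on the minus strand and that of Acadvl chr11:70015379-70015678 on the minus strand, with half-sites 249 and 87 bases before the start. The half-site was thus seen in members that passed the test and in members that did not.

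Levels are log2 intensities after background correction and quantile normalization, and a level is compared only within 1 feature. A pool was taken as at background below 7.55, the median over all gene features. Raw intensities had medians of 102 and 176 in db/db pools 1 and 2, and of 254 and 151 in db/+ pools 1 and 2. Runs of adjacent spots in which an array departed from the median of the other arrays were treated as misread stretches. Spots where both pools of a group departed from the other group were also caught. Misread stretches held 24.5% of gene features and 21 of the 86 member features. Each difference was therefore tested by limma over all gene features (the full fit) and again on the features outside misread stretches (the restricted fit). In the full fit 0.997% of features passed an adjusted p of 0.05, 195 higher (0.578%) and 141 lower (0.418%) in db/db, and in the restricted fit 8.2%, 1705 higher (6.69%) and 384 lower (1.51%). The split depends on the scaling, with 126 higher and 270 lower by median scaling and 58 and 91 by cyclic loess in the full fit, and 1267 and 655, and 1146 and 551, in the restricted fit. All 8 T cell markers outside misread stretches were above background, Cd3d at 15.04 and 14.85 in db/db and 13.87 and 14.27 in db/+. Of the 8, 0 were called higher and 1 lower in the restricted fit, against 7.49% and 1.57% of all genes. Their differences were positive for 5 and negative for 3. Zap70 was the marker called lower (log2 difference -0.55, adjusted p = 0.0476 in the restricted limma fit). Lepr was at background in every pool, at 6.42 and 6.23 in db/db and 6.30 and 6.25 in db/+, so it could not check the labels. The Y-linked Eif2s3y read 13.95 and 13.77 in db/db and 5.97 and 6.68 in db/+, and Xist 10.06 and 6.60 in db/db and 14.33 and 13.88 in db/+. Genotype and the sex these transcripts mark cannot be told apart in any result here.

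Most fatty acid oxidation transcripts read somewhat higher in the db/db pools, few of them past the test. The part of other cell types in these bulk values was not tested. The clearest rises were in Cd36, a fatty acid carrier, and Fabp4, a fatty acid binding protein. Cd36 passed only on its dimmer feature and not on its brighter. Smaller rises were called for Acsl3, Cpt1a, Hadh, Eci2, Acaa1a, Acaa2 and Acox3, enzymes that activate, carry or shorten fatty acids. These calls were made in the restricted fit only and were lost under median scaling. Cpt1a and Acaa2 each passed on 1 of 8 features outside misread stretches, and not on the brightest. The receptors themselves were at or near background or level between the groups. No member was called lower outside the misread stretches, where Echs1, Etfb and Ppara had negative differences on their brightest features.

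In the restricted fit 10 of 65 member features, of 9 genes, were called higher and 0 lower, or 15.4% higher against 6.69% of all features (lower, 1.51%). Their folds ran from 1.46 to 2.65. Of the 65 features 47 had a positive difference, against 14707 of all 25467 features outside misread stretches. The median over the 65 was 0.36 on the log2 scale, against 0.04 over those 25467. The 21 member features in misread stretches ran from -4.52 to 1.38. By the brightest feature of each gene, 6 of 31 members were called higher (19.4%, against 7.49% of all genes) and 0 lower (1.57% of all genes, for 9.07% in either direction). Members were mostly well expressed, and among genes above background the shares were 20% of 30 members and 12.8% of 9186 genes, with 0 of those members and 2.68% of those genes called lower. Both db/db pools lay above both db/+ pools for 23 of 31 members, against 36.5% of all genes and 48.1% of those above background, and below them for 3 of 31 members, against 19.8% of all genes. The median log2 difference was 0.47 over the members, 0.05 over all genes outside misread stretches and 0.20 over those above background. In the full fit 3 member features passed, 2 higher (Cd36 and Fabp4) and 1 lower (Acaa2, in a misread stretch), and 0 of 35 genes passed in limma on their brightest feature, where 15 had an unadjusted p below 0.05. Among all 19087 genes in the full limma fit 0.838% passed on the brightest feature, 0.629% higher and 0.21% lower, and 4080 had an unadjusted p below 0.05. With 1 of the 4 arrays left out, 1 group holds a single pool, and the median over the 35 members then ran from 0.29 to 0.50. Under median scaling the restricted fit called 4 member features, all of Cd36 and Fabp4. The median over members was 0.28 under median scaling, 0.30 under cyclic loess and 0.29 without db/+ replicate 1.

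**Figure D1:**
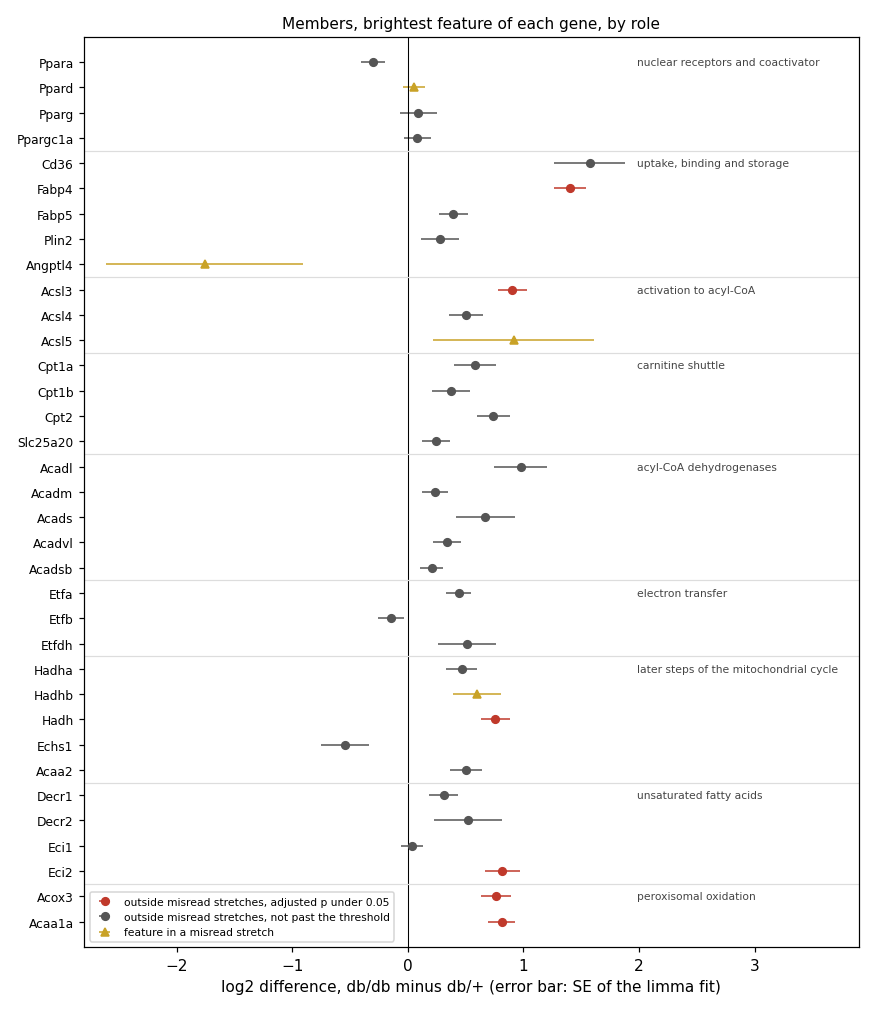
Log2 difference (db/db minus db/+, horizontal axis) of each member on its brightest feature, grouped by role, with the SE of the limma fit as error bars. Red circles passed in the restricted fit, grey circles did not and yellow triangles lay in misread stretches. To the right of 0 lie 28 of the 31 circles, against 58.6% of all genes and 66.5% of those above background. Cd36 and Fabp4 lie farthest right.

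Among the receptors, Ppara, which drives fatty acid oxidation in liver and heart, was at background in every pool on all 8 features outside misread stretches. Its brightest feature read 6.39 and 6.52 in db/db and 6.80 and 6.72 in db/+ (log2 difference -0.30, adjusted p = 0.249 in the full and 0.172 in the restricted limma fit). Ppard, the broadly expressed family member, had 1 feature, in a misread stretch and at background, with 6.17 and 6.05 in db/db and 6.04 and 6.07 in db/+. Pparg, best known from fat cells and macrophages, was above background, at 9.21 and 8.98 in db/db and 8.85 and 9.16 in db/+. The Pparg groups overlapped on 8 of 9 features outside misread stretches, with log2 differences from -0.24 to 0.09 (restricted limma fit, adjusted p = 0.798 on the brightest, whose sign was negative with either other scaling). On the remaining feature the db/db pools, at 8.64 and 8.60, lay below the db/+ pools, at 8.76 and 8.77, and it did not pass (adjusted p = 0.422). Ppargc1a encodes the coactivator PGC-1 alpha and read 7.87 and 7.70 in db/db and 7.77 and 7.64 in db/+, close to background. Its groups overlapped, and its log2 difference of 0.08 (adjusted p = 0.751 and 0.746 in the full and restricted limma fits) was negative with either other scaling. A second Ppargc1a feature, at background in all pools, read 6.85 and 6.88 in db/db and 6.52 and 6.48 in db/+, without overlap, and did not pass (log2 difference 0.36, adjusted p = 0.153 and 0.0961).

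Genes of uptake, binding and storage held the largest differences. Cd36 was measured on 2 features, both outside misread stretches. The brighter read 9.75 and 9.40 in db/db and 7.60 and 8.41 in db/+, a log2 difference of 1.57 (SE 0.31) or 2.98-fold, which did not pass (limma, adjusted p = 0.142 in the full and 0.0546 in the restricted fit). The dimmer read 9.17 and 9.16 in db/db and 7.84 and 7.95 in db/+, a rise of 1.27 (SE 0.10) or 2.42-fold (adjusted p = 0.0447 and 0.0156). On both features the db/db pools lay above the db/+ pools, and db/+ pool 1 was close to background on the brighter.

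Fabp4, a carrier of fatty acids in fat cells and macrophages, had 3 features. The brightest read 9.43 and 9.26 in db/db and 7.81 and 8.07 in db/+, a rise of 1.41 (SE 0.14) or 2.65-fold in the restricted fit only (adjusted p = 0.0636 in the full and 0.0197 in the restricted limma fit). On the next, with 8.47 and 8.32 in db/db and 7.13 and 7.12 in db/+, the db/+ pools were at background and the rise was at least 1.79-fold (adjusted p = 0.0498 and 0.0156). The dimmest feature was at background in all pools and did not pass (adjusted p = 0.176 and 0.0863). Without 1 array, the log2 difference of the brightest Fabp4 feature ran from 1.27 to 1.54 and that of the called Cd36 feature from 1.22 to 1.33, with no call (restricted limma fit, adjusted p from 0.0657 to 0.177 and from 0.0644 to 0.177).

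Fabp5, a relative of Fabp4 found in many tissues and in T cells, read 7.87 and 7.75 in db/db and 7.31 and 7.52 in db/+, where both pools were at background (log2 difference 0.39, adjusted p = 0.229 in the full and 0.136 in the restricted limma fit). Plin2, which coats lipid droplets, read 9.96 and 9.69 in db/db and 9.39 and 9.71 in db/+, with overlapping groups (log2 difference 0.28, adjusted p = 0.496 and 0.398). Angptl4, a secreted inhibitor of lipoprotein lipase, had its 1 feature in a misread stretch, with 6.73 and 8.90 in db/db and 9.31 and 9.85 in db/+. Its db/db pools lay below the db/+ pools but far from each other, and it did not pass (log2 difference -1.76, adjusted p = 0.390).

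Markers of myeloid cells differed between the same pools as Cd36 and Fabp4, which such cells also express. Of 13 macrophage and monocyte markers outside misread stretches 4 were called higher in the restricted fit and 0 lower, against 7.49% and 1.57% of all genes for this and the next lists, with a median log2 difference of 0.47, and their summed intensity was 52455 and 48289 in db/db and 9043 and 16934 in db/+. Adgre1, a surface receptor gene of macrophages, read 10.69 and 10.49 in db/db and 8.51 and 9.15 in db/+ (log2 difference 1.76, adjusted p = 0.0912 in the full and 0.0301 in the restricted limma fit). Mrc1, C1qb, Marco, Cd163 and Mpeg1 were at background in every pool. Of 11 neutrophil markers 8 were called higher and 0 lower, and the summed intensity of the 11 was 65789 and 69818 in db/db and 7643 and 20542 in db/+. Mpo had a negative difference, with 10.07 and 9.75 in db/db and 9.06 and 12.47 in db/+ and overlapping groups (log2 difference -0.86). Only Cxcr2 among these 11 was at background throughout. Such a sum follows its brightest genes, in db/db Lyz2 and Ctss among the macrophage and monocyte markers and S100a9 and S100a8 among the neutrophil markers. The 2 CD8 markers, Cd8a and Cd8b1, were both called higher, with summed intensities of 27407 and 27263 in db/db and 11504 and 14691 in db/+. Of 11 B cell markers 4 were called higher and 0 lower. In the adipocyte and endothelial list, Lep, Plin1, Retn, Tek and Cdh5 were at background in every pool, and 1 of its 8 genes was called higher, Pecam1 of endothelial cells. In db/+ pool 1 the summed intensities of macrophage and neutrophil markers were below those of pool 2, as was the brighter Cd36 feature. This order was common, as db/+ pool 2 read above pool 1 for 83.9% of members and 72.2% of all genes above background. The part of these cell types in the member values was not tested.

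**Figure D2:**
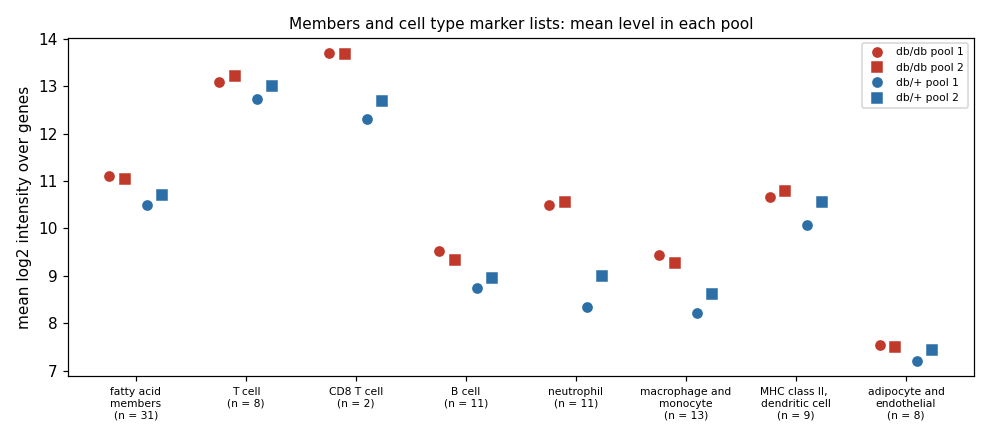
Mean log2 intensity (vertical axis) over the 31 members and over each list of cell type markers, 1 point per pool, on the brightest feature of each gene outside misread stretches. In every list shown both db/db pools lie above both db/+ pools and db/+ pool 1 is lowest, with the widest gap for neutrophil markers. Levels are to be compared within a list only, and single genes can differ from the mean. Of 9 MHC class II and dendritic cell markers 1 was called higher and 0 lower in the restricted fit (7.49% and 1.57% of all genes). The db/db pools lay above the db/+ pools for 4 of the 9 and below them for 3 (Itgax, Xcr1 and Zbtb46), against 36.5% and 19.8% of all genes.

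Acyl-CoA synthetases trap fatty acids as coenzyme A esters. Acsl3, which serves lipid droplets at the endoplasmic reticulum, read 11.68 and 11.60 in db/db and 10.61 and 10.86 in db/+, 1.87-fold higher in db/db in the restricted fit (adjusted p = 0.0840 in the full and 0.0305 in the restricted limma fit). Acsl4, which prefers arachidonate, read 12.14 and 11.94 in db/db and 11.40 and 11.67 in db/+ on the feature outside misread stretches (log2 difference 0.50, adjusted p = 0.222 and 0.120). Its other feature, in a misread stretch, read 10.99 and 13.89 in db/db and 14.11 and 14.21 in db/+ (log2 difference -1.72, adjusted p = 0.496), with db/db pool 1 far below the other pools. Acsl5 had 1 feature, in a misread stretch, at 14.27 and 14.32 in db/db and 12.47 and 14.29 in db/+, where db/+ pool 1 alone stood apart (adjusted p = 0.550).

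In the carnitine shuttle both db/db pools lay above both db/+ pools on the brightest feature of all 4 members, as for 48.1% of all genes above background, and 1 feature passed. Cpt1a, the main control point for entry into mitochondria, had 11 features, 8 of them outside misread stretches. Its brightest read 12.47 and 12.38 in db/db and 11.61 and 12.08 in db/+ (log2 difference 0.58, adjusted p = 0.262 in the full and 0.144 in the restricted limma fit). The next read 12.53 and 12.42 in db/db and 11.64 and 11.72 in db/+, a 1.74-fold rise in the restricted fit (adjusted p = 0.0730 and 0.0276). On 7 of the 8 features both db/db pools lay above both db/+ pools, against 35.1% of all features (below them, 19.9%), and the median over the 8 was 0.51. The exception had a log2 difference of -0.34, with 11.59 and 10.01 in db/db and 11.01 and 11.26 in db/+. In misread stretches 1 Cpt1a feature had a log2 difference of -4.52, at 8.04 and 6.73 in db/db and 11.71 and 12.11 in db/+ (adjusted p = 0.0703 in the full limma fit), and the other 2 had 0.56 and -1.24. Since all features of Cpt1a share the same 4 arrays, they are not replicates.

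Cpt2, the inner membrane transferase, read 11.93 and 11.77 in db/db and 10.96 and 11.26 in db/+, 1.67-fold higher and just short of the threshold (adjusted p = 0.129 in the full and 0.0546 in the restricted limma fit). Cpt1b, the muscle form, read 8.25 and 7.86 in db/db and 7.61 and 7.75 in db/+ (log2 difference 0.37). The carrier gene Slc25a20 had a log2 difference of 0.24, whose sign changed under median scaling.

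**Figure D3:**
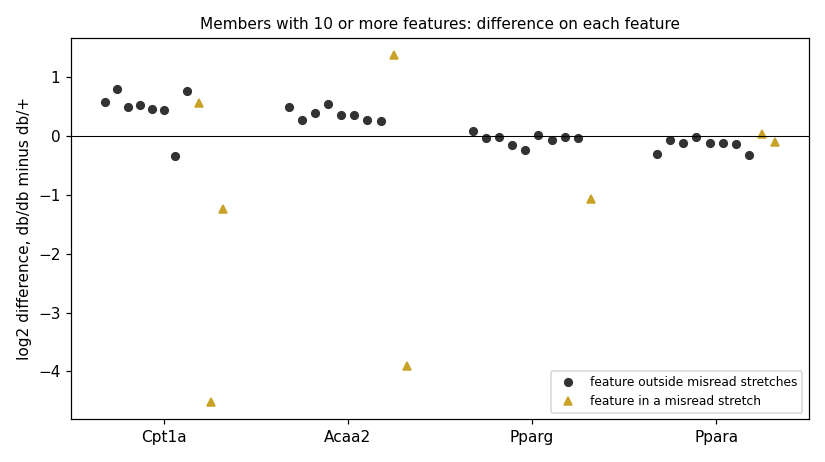
Log2 difference (db/db minus db/+, vertical axis) on every feature of the 4 members with 10 or more features, with circles outside and triangles in misread stretches. Circles of Cpt1a (with 1 exception) and Acaa2 lie above 0 and all 8 of Ppara below 0, those of Pparg run from -0.24 to 0.09, while triangles reach -4.52 for Cpt1a and -3.92 for Acaa2.

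Of the 5 acyl-CoA dehydrogenases, which start each round on chains of a given length, none passed, although both db/db pools lay above both db/+ pools for all 5, as for 48.1% of all genes above background. Acadl, the long-chain enzyme, had the third most positive difference among the members but did not pass, with 11.59 and 11.53 in db/db and 10.27 and 10.90 in db/+ (log2 difference 0.98, adjusted p = 0.181 in the full and 0.0794 in the restricted limma fit). Acadvl, the very-long-chain enzyme, read 13.06 and 13.01 in db/db and 12.58 and 12.81 in db/+ (log2 difference 0.34, adjusted p = 0.271 and 0.176). Acadm and Acads, the medium- and short-chain enzymes, had log2 differences of 0.23 and 0.67. Acads read 8.68 and 9.37 in db/db and 8.27 and 8.44 in db/+, and its difference was 0.32 without db/db replicate 2 and 1.02 without db/db replicate 1. Acadsb, which acts on branched chains, had 0.21, which was negative with either other scaling.

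The electron transfer genes take the electrons of these dehydrogenases to ubiquinone. Etfa read 13.85 and 13.76 in db/db and 13.30 and 13.43 in db/+ (log2 difference 0.44, adjusted p = 0.149 in the full and 0.0819 in the restricted limma fit). Etfb, the other subunit of the same flavoprotein, had the opposite sign. It read 13.14 and 13.00 in db/db and 13.29 and 13.14 in db/+ (log2 difference -0.15, adjusted p = 0.549 and 0.511), and the difference between the subunits was not tested. Etfdh, the ubiquinone oxidoreductase, read 13.27 and 13.29 in db/db and 12.41 and 13.12 in db/+ (log2 difference 0.51, adjusted p = 0.442 and 0.312), and its difference was 0.16 without db/+ replicate 1, the pool that stood apart.

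For the later steps, Hadh, a 3-hydroxyacyl-CoA dehydrogenase, read 12.08 and 12.32 in db/db and 11.40 and 11.49 in db/+, 1.69-fold higher in the restricted fit (adjusted p = 0.101 in the full and 0.0405 in the restricted limma fit). Acaa2, the mitochondrial thiolase, had positive differences on all 8 features outside misread stretches, from 0.26 to 0.55, and 1 of them passed in the restricted fit, with 12.72 and 12.61 in db/db and 12.16 and 12.07 in db/+ (adjusted p = 0.106 and 0.0496). Of its 2 features in misread stretches 1 was called lower in the full fit, at 8.58 and 7.98 in db/db and 12.04 and 12.35 in db/+ (log2 difference -3.92, adjusted p = 0.0442), and the other had a log2 difference of 1.38. Hadha, a subunit of the trifunctional protein, read 10.43 and 10.32 in db/db and 10.04 and 9.77 in db/+ (log2 difference 0.47, adjusted p = 0.217 and 0.120). A second Hadha feature, in a misread stretch, read 8.90 and 10.02 in db/db and 10.33 and 10.16 in db/+ (log2 difference -0.78, adjusted p = 0.446 in the full limma fit), with the db/db pools below the db/+ pools. The other subunit, Hadhb, lay in a misread stretch, at 14.43 and 13.93 in db/db and 13.56 and 13.60 in db/+ (log2 difference 0.60, adjusted p = 0.258).

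Echs1, the short-chain enoyl-CoA hydratase, had the most negative difference outside misread stretches. It read 13.53 and 13.01 in db/db and 13.71 and 13.92 in db/+, without overlap, but did not pass (log2 difference -0.54, adjusted p = 0.332 in the full and 0.202 in the restricted limma fit).

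Double bonds are handled by isomerases and reductases. Eci2, an enoyl-CoA isomerase, read 12.99 and 13.32 in db/db and 12.40 and 12.27 in db/+, 1.76-fold higher in the restricted fit (adjusted p = 0.121 in the full and 0.0487 in the restricted limma fit). Eci1, the mitochondrial isomerase, was level at 12.70 and 12.66 in db/db and 12.60 and 12.68 in db/+ (log2 difference 0.04, negative with either other scaling). The dienoyl-CoA reductase Decr1 read 8.96 and 8.85 in db/db and 8.49 and 8.71 in db/+ (log2 difference 0.31), and on a second feature, in a misread stretch and at background, had -0.66, and neither passed. Decr2, its peroxisomal relative, read 11.12 and 11.59 in db/db and 10.49 and 11.18 in db/+, with overlapping groups, and did not pass. Its log2 difference was 0.52, and 0.18 without db/+ replicate 1.

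Of the peroxisomal genes, Acox3 and Acaa1a were called higher in the restricted fit, while Decr2 did not pass. Acox3, an acyl-CoA oxidase, read 12.07 and 11.96 in db/db and 11.13 and 11.38 in db/+, 1.70-fold higher (adjusted p = 0.104 in the full and 0.0416 in the restricted limma fit). Acaa1a, a peroxisomal thiolase, read 11.94 and 11.91 in db/db and 11.00 and 11.22 in db/+, 1.76-fold higher (adjusted p = 0.0848 and 0.0320). Acaa1a has a close copy, Acaa1b, and Eci2 has Eci3, and whether the features tell the copies apart was not tested. The rises of Acsl3, Cpt1a, Hadh, Eci2, Acaa1a, Acaa2 and Acox3 were not called in the restricted fit under median scaling, and those of Hadh, Eci2 and Acaa2 not under cyclic loess. Without any 1 of the arrays, which leaves 1 pool in a group, the log2 differences of all these genes ran from 0.50 for Acaa2 to 1.02 for Acsl3.

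**Figure D4:**
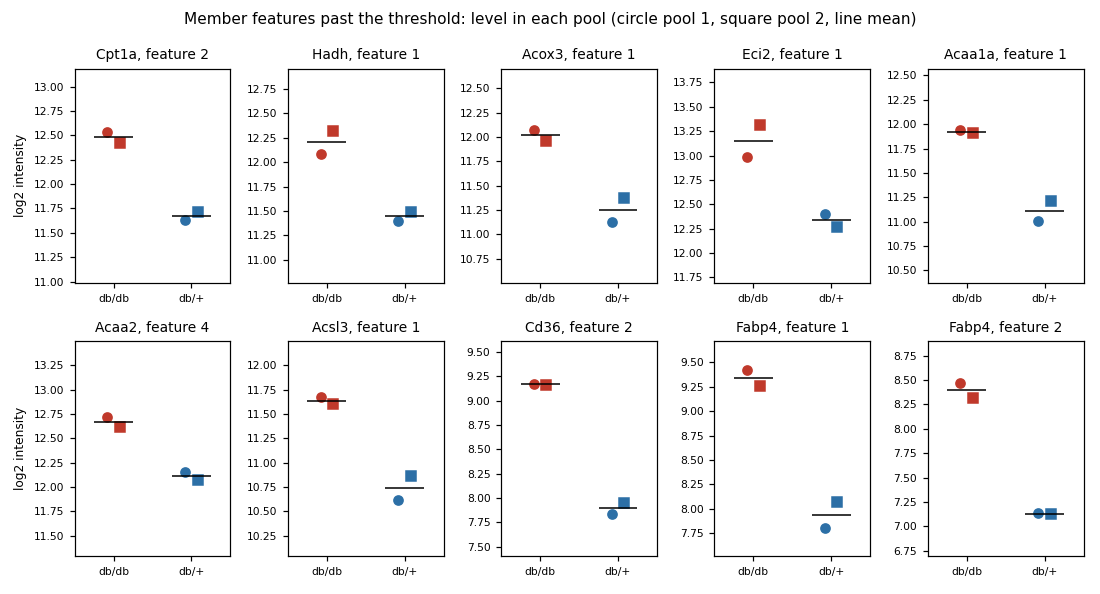
Level (log2 intensity, vertical axis) in each pool of the 10 member features past the threshold in the restricted fit, with db/db left in red, db/+ right in blue, circles for pool 1, squares for pool 2 and a line at the mean of 2 pools. In every panel both db/db pools lie above both db/+ pools, by mean log2 differences from 0.55 for Acaa2 to 1.41 for Fabp4; all panels span the same 2.2 log2 units.

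Other genes of the pathway were read from further lists. Of 47 further oxidation genes 36 had a feature outside misread stretches, and 5 were called higher and 0 lower in the restricted fit (13.9% higher, against 7.49% of all genes), with a median log2 difference of 0.43. Mmut, the methylmalonyl-CoA mutase that disposes of odd chain ends, read 13.58 and 13.58 in db/db and 12.54 and 12.29 in db/+, a 2.25-fold rise (adjusted p = 0.0661 in the full and 0.0214 in the restricted limma fit). Phyh, which starts alpha-oxidation of branched chains, rose 1.66-fold (adjusted p = 0.0285), and the others were Eci3, Acad10 and Acad11, with log2 differences of 0.93, 0.86 and 0.80. Cpt1c and Acacb were at background in every pool. In the full fit 0 of 43 passed in limma, against 0.838% of all genes. An unadjusted p below 0.05 was found for 17 of the 43, against 4080 of all 19087 genes (full limma fit).

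Of 17 partners and coactivators of PPARs 0 were called higher and 1 lower in the restricted fit, against 7.49% and 1.57% of all genes. Their median log2 difference was 0.09, and 4 had an unadjusted p below 0.05 in limma, against 4333 of all 16145 genes. The called one was Pprc1, a relative of PGC-1 alpha, at 13.67 and 13.45 in db/db and 14.30 and 14.29 in db/+, 1.66-fold lower in db/db (adjusted p = 0.0962 in the full and 0.0384 in the restricted limma fit). The retinoid X receptor genes Rxra and Rxrb had log2 differences of 0.12 and -0.06. Of 26 other PPAR targets and lipid genes 1 was called higher (7.49% of all genes) and 0 lower (1.57%), with a median of 0.03, and 15 were at background in every pool, among them Pdk4, Fgf21, Cyp4a10, Cyp4a14, Vnn1 and Fabp1, which are well-known targets in liver or muscle. The called gene was Lpl, lipoprotein lipase, which read 10.23 and 10.30 in db/db and 9.01 and 9.49 in db/+, 2.02-fold higher (adjusted p = 0.122 and 0.0468).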

How the data were processed

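Total RNA of 4 pools was labelled and read on one-colour arrays of 45220 features. The deposited raw table holds the median foreground intensity on a linear scale, per the file headers, without background subtraction. The deposited value table holds log2 values of the authors, which equal quantile-normalized log2 raw values within 5e-09; the submitters' processing notes name limma. With limma 3.58.1 (R 4.3.3) background was corrected by normexp (offset 50), and values were log2 transformed, quantile normalized and tested by lmFit and eBayes, two-sided, with Benjamini-Hochberg adjustment over 33709 gene features or over the 25467 kept. An exact permutation test of 2 against 2 pools cannot go below p = 0.333. The number of arrays limits the precision.

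The tables name no genes. Features were placed by a layout inferred from the data: over 2293 features of 218 accessions, the median deviation within an accession was 0.138 log2 units, against 1.10 with row numbers taken as feature numbers. Misread stretches were scan lines in which over 5% of spots departed by more than 2 log2 units from the other arrays' median (40 of 170 lines), and any window of 15 spots holding 3 or more of them. This rule was chosen on these data and is not independent of the comparison.

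Each gene is represented by the brightest of its features outside misread stretches, or of all where none was outside. Values per pool are given for members that passed, the 3 largest differences either way and fixed genes, and from each further list up to 5 that passed. Members and lists were chosen with earlier results of these data known. Alternatives were no background correction, median scaling, cyclic loess, the replicate number as a block, dim features left out, gene means and each array left out.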

Additional observations from a re-analysis of the deposited data

How the results depend on the processing

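Over all gene features 336 were called, against 149 under cyclic loess, 188 without dim features, 2089 without the misread stretches and 0 with the replicate block (limma, 5146 at an unadjusted p below 0.05). Of member features 3 were called, against 0 under cyclic loess and with the replicate block, 1 without dim features and 10 without the misread stretches. Of member genes 0 were called on their brightest feature, 6 with the misread stretches left out and 1 (Fabp4) by the mean of all features of a gene. With the misread stretches left out, the 2089 features became 445 with the replicate block and 336 with the stretches kept, and the 10 member features became 4 under median scaling, 2 with the replicate block (Cd36 and Fabp4) and 3 with the stretches kept. Leaving out 1 array gave 0 to 0 calls in all 5 counts. The labels do not tie replicate numbers to the experiments. Over features, deviations of same-numbered pools from their group means correlated at -0.0334, and at -0.0461 with the misread stretches left out. With 2 pools per group these values cannot decide whether same-numbered pools shared an experiment. The replicate block left every log2 difference as it was. The median over members lay between 0.28 and 0.50 under all alternatives, and 5 of 35 members changed sign under median scaling, all with log2 differences below 0.25 and none of them called. By the mean of all features of a gene, misread ones included, 5 changed sign: Cpt1a to -0.13 against 0.58 on its brightest feature, Acsl4 to -0.61 against 0.50, Hadha to -0.11 against 0.47, Decr1 to -0.17 against 0.31 and Pparg to -0.15 against 0.09. None of these means passed.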

Other observations

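Within db/+, pool 2 read above pool 1 for 26 of 31 members (83.9%), by a median of 0.21 log2 units, against 63.5% of all genes and 72.2% of those above background (median 0.15). Within db/db, pool 2 read above pool 1 for 7 of 31 members, with a median of -0.09 log2 units. The replicate numbers name pools only and give no order.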
